A study of Mus musculus with 8 samples.

Results

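The 10 neutrophil granule genes described here are Mpo, Elane, Prtn3 and Ctsg, whose products fill the primary granules, and Mmp8, Mmp9, Camp, Ngp, Ltf and Lcn2, whose products fill the granules made later. They are 10 of 18193 genes measured on Affymetrix mouse GeneChip arrays, each read from the probe set annotated to that 1 gene symbol, and from the one with the highest mean over the 8 arrays where a gene had more than 1. Blood monocytes of male C57BL/6 mice were sorted into 4 groups of 2 biological replicates: Gr1lo (nonclassical, Ly-6C low) cells carrying fluorescent latex beads, Gr1lo cells without beads, Gr1hi (classical, Ly-6C high) cells carrying beads, and Gr1hi cells without beads. All mice had received Fluoresbrite microspheres of 1 µm into a vein 4 days before the sort, so cells without beads came from bead-injected animals too. The descriptions conflict on clodronate liposomes, which deplete phagocytes. The series design has them given 3 days before the beads in general, whereas the treatment protocol restricts them to the labelling of classical cells. Which groups received them is thus not settled, and clodronate and subset cannot be told apart in any comparison of Gr1lo with Gr1hi cells. If bead-free Gr1hi cells came from mice without clodronate, clodronate and bead state cannot be told apart within Gr1hi cells either. That limit would extend to the comparison of bead differences between the subsets. How many mice and cells stood behind an array is not stated in the labels, and 2 arrays per group limit the precision of every value.

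Neutrophil granules are laid down in sequence while the cell matures in the bone marrow, and each protein is stored in the granules that form while its gene is active. Primary (azurophil) granules form at the promyelocyte stage and hold myeloperoxidase and the serine proteases. Specific granules, with lactoferrin and antimicrobial proteins, and gelatinase granules follow, and transcription of most of these genes is low in circulating neutrophils. Promyelocytes share their precursors with monocytes, and the primary granule genes are also transcribed in granulocyte-monocyte progenitors.

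Prtn3 (proteinase 3) and Elane (neutrophil elastase) are neighbours on mouse chromosome 10 with 0 protein-coding genes between them and start sites 6645 bases apart. Their probe sets were both highest in Gr1hi cells without beads but differed in amplitude. Over the 8 arrays Prtn3 spanned 4.53 log2 units and Elane, close to background, 0.66. Mmp8 (neutrophil collagenase) and Lcn2 (lipocalin 2), on chromosomes 9 and 2, had spans closer to that of Prtn3 (5.81 and 4.53). The promoters of these 4 genes are shown for that reason, as RefSeq gives them on GRCm38.p6, from 250 bases before to 50 bases after the start of the gene and read along the gene's strand. Capitals mark GAGGAA, an Ets-type sequence bound by PU.1, GCAAT, a C/EBP half-site, and AACGG, a Myb-type sequence, each searched on both strands and with no overlap between their matches, so that a match to the other strand appears as its reverse complement.
Prtn3, chr10:79879417-79879716, + strand: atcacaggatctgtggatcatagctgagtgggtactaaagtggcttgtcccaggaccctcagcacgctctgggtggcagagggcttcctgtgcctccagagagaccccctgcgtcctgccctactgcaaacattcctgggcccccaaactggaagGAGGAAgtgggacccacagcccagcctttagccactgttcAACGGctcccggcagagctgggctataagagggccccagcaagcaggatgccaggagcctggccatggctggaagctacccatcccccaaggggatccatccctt
Elane, chr10:79886062-79886361, + strand: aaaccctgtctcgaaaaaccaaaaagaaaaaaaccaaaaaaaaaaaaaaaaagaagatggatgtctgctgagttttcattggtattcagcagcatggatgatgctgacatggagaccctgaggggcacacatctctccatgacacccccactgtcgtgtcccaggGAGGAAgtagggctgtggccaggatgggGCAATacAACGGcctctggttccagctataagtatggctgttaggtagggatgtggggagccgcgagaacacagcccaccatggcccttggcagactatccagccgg
Mmp8, chr9:7558179-7558478, + strand: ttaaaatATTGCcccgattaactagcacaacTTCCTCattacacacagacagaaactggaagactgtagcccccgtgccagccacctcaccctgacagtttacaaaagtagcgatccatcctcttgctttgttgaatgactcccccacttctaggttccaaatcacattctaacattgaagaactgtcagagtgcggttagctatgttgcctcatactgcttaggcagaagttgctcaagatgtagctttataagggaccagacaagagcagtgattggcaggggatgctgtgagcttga
Lcn2, chr2:32387690-32387989, - strand: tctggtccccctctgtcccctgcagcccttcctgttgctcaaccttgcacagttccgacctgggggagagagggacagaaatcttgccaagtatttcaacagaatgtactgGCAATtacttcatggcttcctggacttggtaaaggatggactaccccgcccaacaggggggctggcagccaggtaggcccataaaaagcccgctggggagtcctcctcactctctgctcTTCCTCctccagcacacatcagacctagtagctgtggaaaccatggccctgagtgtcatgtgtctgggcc
The neighbours Prtn3 and Elane both carry AACGG shortly before the start, at 55 and 50 bases from it, and GAGGAA at 95 and 85 bases before it. GCAAT was found between them in the Elane window. Promoter sequences of 9 of the 10 genes were matched by symbol, and GAGGAA occurred in 7 of them and in 28.3% of all 32851 promoter windows. GCAAT occurred in 7 of the 9 and in 26.4% of all windows. AACGG occurred in the windows of Prtn3 and Elane, which are 2 of the 9, and in 17.4% of all windows. All 3 sequences stood together in the Elane window and in 1.4% of all windows. The motifs were chosen with the results known, and a match is a description of letters, not a measured binding site.

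Values are log2 expression values as the authors normalised them, and a background level of 6.98 was taken from receptor and keratin-associated gene families that blood cells are not known to use. The array medians lay between 6.12 and 6.19, and the 2 arrays of a group had correlations of 0.994 to 0.996 over the probe sets. The labels held for the sorted subsets: Nr4a1, the transcription factor of nonclassical monocytes, was at 13.35 to 13.56 in Gr1lo and 11.16 to 11.36 in Gr1hi cells, and Ccr2, the chemokine receptor of classical monocytes, at 10.59 to 11.71 in Gr1lo and 11.83 to 12.33 in Gr1hi cells. The monocyte receptor gene Csf1r was at 13.99 to 14.53 on every array. Of the defining neutrophil genes, the chemokine receptor Cxcr2 stayed below background on all 8 arrays (5.56 to 6.20), Csf3r was at 10.28 to 10.72 in all groups, and Ly6g was not analysed here. The progenitor genes Kit (5.24 to 5.495) and Cd34 (4.89 to 5.28) were below background on all arrays. Other progenitor markers were not: of 12 measured, 5 were above background on each Gr1hi array (Cd93, Flt3, Mki67, Sox4 and Top2a). On the Gr1lo arrays 3 to 5 were. In sorted populations a smaller share of cells with a transcript and less of the transcript per cell cannot be told apart.

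All 10 granule genes had their highest group mean in Gr1hi cells without beads and their second highest in Gr1hi cells with beads. By group mean, all 10 were above the background level in Gr1hi cells without beads and 8 in Gr1hi cells with beads. In Gr1lo cells without beads 3 were (Elane, Prtn3 and Mmp8), and in Gr1lo cells with beads Elane alone was. On arrays 1 and 2 of these groups, in the same order, the counts were 10 and 9, 9 and 5, 4 and 2, and 0 and 1. Of all genes, 48.6%, 48.5%, 47.4% and 47.6% had group means above background in these groups, and 51.2% in at least 1 group. The order of the 2 Gr1lo groups differed among the members: Prtn3, Ctsg, Mmp8, Mmp9 and Lcn2 had the lower mean in bead-carrying cells, and Mpo, Elane, Camp, Ngp and Ltf had the higher mean there.

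Among the primary granule genes, Prtn3 encodes a serine protease that is an autoantigen of antineutrophil antibodies. It was at 6.14 and 5.68 in Gr1lo cells with beads, 8.67 and 6.89 in Gr1lo cells without beads, 9.67 and 9.62 in Gr1hi cells with beads, and 9.90 and 10.21 in Gr1hi cells without beads. Every Gr1hi array lay above every Gr1lo array, and the 2 arrays of bead-free Gr1lo cells, on either side of the background level, stood further apart than those of any other group. Elane, the neighbouring elastase gene, varied over 0.66 log2 units in all, with 6.96 and 7.28 in Gr1lo cells with beads, 7.01 and 7.03 in Gr1lo cells without beads, 7.45 and 7.33 in Gr1hi cells with beads, and 7.57 and 7.61 in Gr1hi cells without beads. Its Gr1lo groups overlapped, and all its values lay close to the background level.

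Mpo encodes myeloperoxidase, the haem enzyme that makes hypochlorous acid. It was at 5.88 and 6.04 in Gr1lo cells with beads, 5.81 and 6.06 in Gr1lo cells without beads, 6.14 and 6.07 in Gr1hi cells with beads, and 7.15 and 7.38 in Gr1hi cells without beads. Gr1hi cells without beads were thus the one group with Mpo above background, and the other 3 groups lay close together below it. Ctsg, which encodes the serine protease cathepsin G, was at 5.60 and 6.00 in Gr1lo cells with beads, 5.93 and 5.95 in Gr1lo cells without beads, 7.54 and 7.80 in Gr1hi cells with beads, and 7.93 and 8.21 in Gr1hi cells without beads. Its values separated the subsets, while its Gr1lo groups overlapped. In Gr1hi cells both bead arrays lay below both bead-free arrays, as for 25% of all genes. The arrays of a Gr1hi group were 0.26 and 0.28 apart, and the bead difference was not called.

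Among the later granule genes, Mmp8 encodes the neutrophil collagenase. It was at 5.99 and 5.70 in Gr1lo cells with beads, 8.52 and 7.57 in Gr1lo cells without beads, 11.06 and 11.09 in Gr1hi cells with beads, and 11.40 and 11.52 in Gr1hi cells without beads. None of its 4 groups overlapped with another, and its range over the 8 arrays was wider than that of 99.9% of genes. Lcn2, the siderophore-binding lipocalin that withholds iron from bacteria, was at 5.71 and 6.01 in Gr1lo cells with beads, 6.98 and 6.28 in Gr1lo cells without beads, 9.75 and 9.74 in Gr1hi cells with beads, and 10.21 and 10.25 in Gr1hi cells without beads. Its order of groups was that of Mmp8, with the Gr1lo arrays at or below background. Mmp9, which encodes gelatinase B, was at 6.38 and 6.41 in Gr1lo cells with beads, 6.56 and 6.25 in Gr1lo cells without beads, 7.05 and 6.96 in Gr1hi cells with beads, and 7.87 and 7.95 in Gr1hi cells without beads. Its Gr1lo groups overlapped below background, and its bead-carrying Gr1hi cells lay at the background level.

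Camp (the cathelicidin antimicrobial peptide), Ngp (neutrophilic granule protein) and Ltf (the iron-binding lactoferrin) are specific granule genes. Camp was at 6.11 and 6.15 in Gr1lo cells with beads, 5.89 and 6.00 in Gr1lo cells without beads, 7.16 and 6.32 in Gr1hi cells with beads, and 7.89 and 6.96 in Gr1hi cells without beads. Ngp was at 6.10 and 6.42 in Gr1lo cells with beads, 6.13 and 6.33 in Gr1lo cells without beads, 7.46 and 6.80 in Gr1hi cells with beads, and 9.02 and 7.45 in Gr1hi cells without beads. Ltf was at 6.58 and 6.72 in Gr1lo cells with beads, 6.29 and 6.76 in Gr1lo cells without beads, 7.37 and 6.84 in Gr1hi cells with beads, and 8.27 and 7.40 in Gr1hi cells without beads. In both Gr1hi groups array 1 was the higher of the pair for all 3 genes, the bead-carrying and bead-free Gr1hi groups overlapped for Camp and Ngp, and all Gr1lo arrays were below background.

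**Figure D1:**
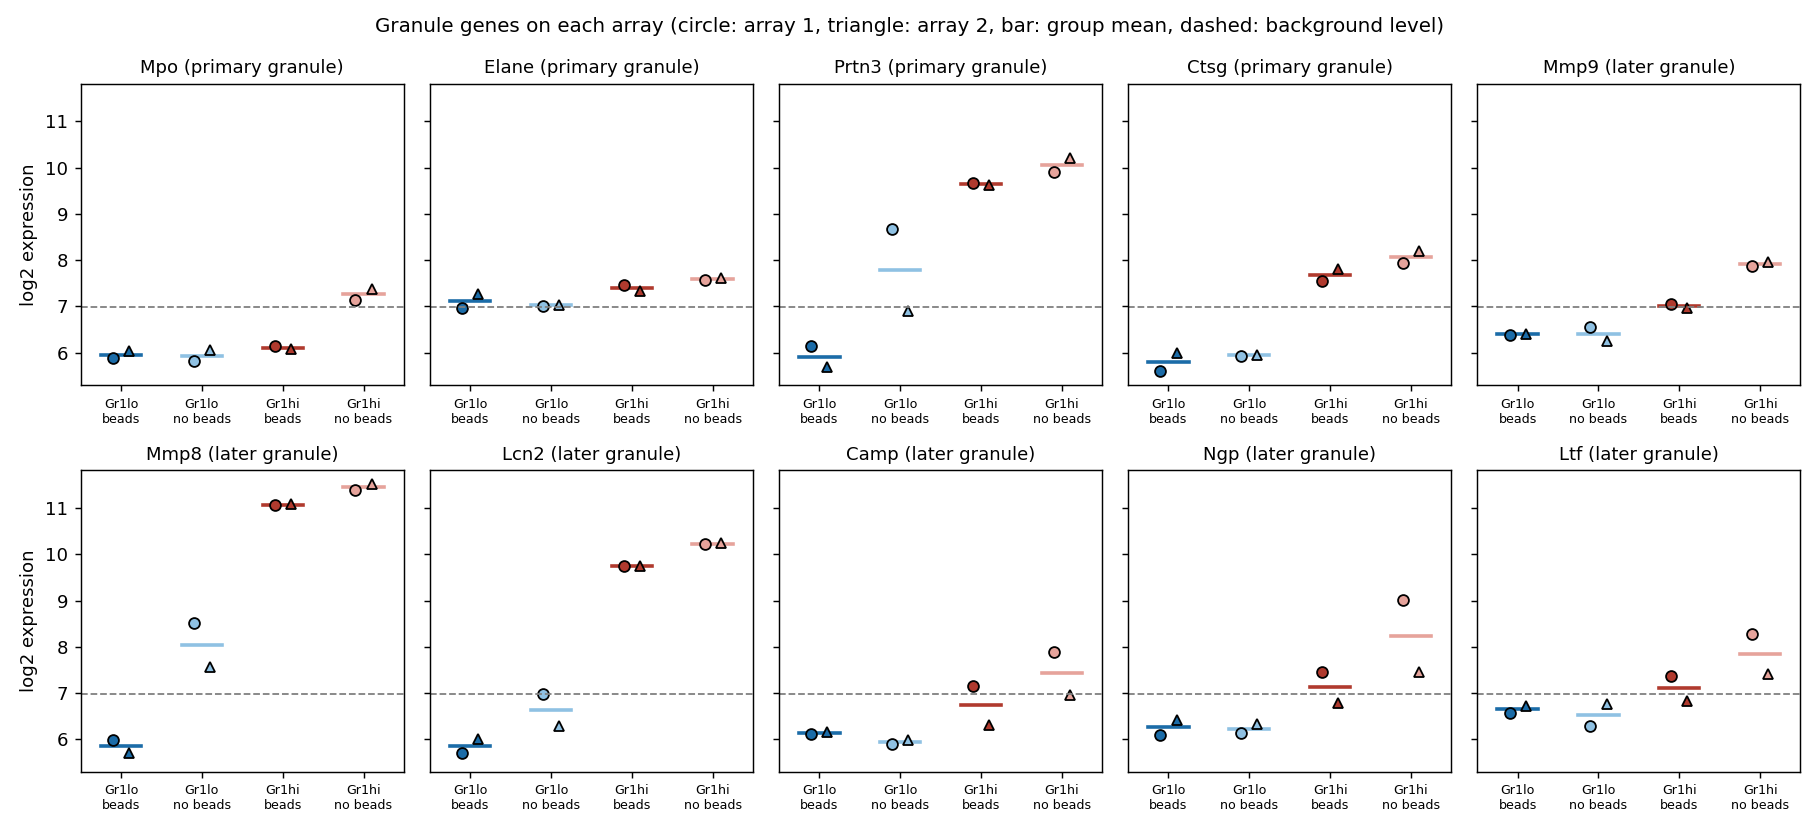
Log2 expression of the 10 granule genes on each array (y axis) in Gr1lo cells with beads, Gr1lo cells without beads, Gr1hi cells with beads and Gr1hi cells without beads (x axis), with circles for array 1, triangles for array 2, a bar at the mean of each group and a dashed line at the background level of 6.98. Prtn3, Mmp8 and Lcn2 spread over 4.53 to 5.81 log2 units, whereas Elane stays within 0.66.

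The first comparison set Gr1lo against Gr1hi cells, both without beads, and asked how the granule genes differ between the monocyte subsets. All 10 fell in Gr1lo cells (limma, adjusted p from 1.09e-05 to 0.0111), and all 10 had both Gr1lo arrays below both Gr1hi arrays. The same threshold, an adjusted p under 0.05, was passed by 23.6% of all genes, 13.6% with lower values in Gr1lo cells, and 40.5% of genes had non-overlapping groups with Gr1lo lower. The median difference was -1.73 for the 4 primary genes and -1.76 for the 6 later genes, against -0.07 for all genes. Lcn2 differed by -3.60 ± 0.20 (SE throughout, n = 2 arrays a group), Mmp8 by -3.41 ± 0.25, Prtn3 by -2.27 ± 0.46 and Ctsg by -2.13 ± 0.15. Ngp differed by -2.002 ± 0.43, Mmp9 by -1.51 ± 0.11, Camp by -1.48 ± 0.31, Mpo by -1.33 ± 0.12, Ltf by -1.31 ± 0.28 and Elane by -0.57 ± 0.11.

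For genes whose mean in Gr1lo cells was above background, Gr1lo cells were 10.7-fold lower for Mmp8, 4.83-fold for Prtn3 and 1.48-fold for Elane. The Prtn3 difference rested on which bead-free Gr1lo array was used, with -3.16 without array 1 and -1.38 without array 2. Where the Gr1lo mean was below background the fold is a bound, from the Gr1hi mean to the background level: at least 9.53-fold lower for Lcn2 (1 of its 2 Gr1lo arrays reached the level), 2.38-fold for Ngp, 2.13-fold for Ctsg, 1.91-fold for Mmp9, 1.81-fold for Ltf, 1.36-fold for Camp and 1.22-fold for Mpo. Without array 1 of bead-free Gr1hi cells the Ngp difference was -1.22 and its bound 1.38-fold, and the remaining Camp array was below background, so that Camp had no bound. Under eBayes with trend and robust estimation 7 of the 10 were called, without Prtn3 (adjusted p = 0.0738), Camp (0.0501) and Ngp (0.0816). The calls for Camp and Ltf were lost without array 1 of Gr1hi cells without beads (adjusted p = 0.0559 and 0.0596), that of Ltf also without array 1 of Gr1lo cells without beads (0.0579), and that of Prtn3 without array 2 of Gr1hi cells without beads (0.0540). Beside this, the classical monocyte markers averaged 11.32 and 10.26 on the bead-free Gr1lo arrays and 12.44 and 12.33 on the bead-free Gr1hi arrays. The mature neutrophil markers (11 of 16 measured, summed linear level 6319 and 6617 against 18098 and 19866) averaged 7.97 and 7.80 against 8.86 and 8.96. Most of the Gr1hi sums came from S100a8 (mean 7.60 in Gr1lo, 13.17 in Gr1hi cells) and S100a9 (6.23 and 12.31). Of the 11 markers, 5 were called lower and 3 higher, beside 13.6% of all genes called lower. The part of these other transcripts in the result was not tested.

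With beads in both subsets, 5 of the 10 granule genes fell in Gr1lo relative to Gr1hi cells, while 26.5% of all genes were called in either direction and 14.6% of all genes were called lower. Mmp8 showed -5.23 ± 0.25 (adjusted p = 4.97e-06), Lcn2 -3.88 ± 0.20 (6.72e-06), Prtn3 -3.73 ± 0.46 (0.0005), Ctsg -1.88 ± 0.15 (6.25e-05) and Mmp9 -0.61 ± 0.11 (0.00402). All 5 were below background in bead-carrying Gr1lo cells, so that the folds are bounds: at least 17.1-fold lower for Mmp8, 6.80-fold for Lcn2, 6.34-fold for Prtn3, 1.62-fold for Ctsg and 1.02-fold for Mmp9. The other 5 did not pass the test: Ngp had -0.87 ± 0.43, Camp -0.61 ± 0.31, Ltf -0.46 ± 0.28, Elane -0.28 ± 0.11 and Mpo -0.15 ± 0.12, with adjusted p between 0.114 and 0.438. All 10 nevertheless had both Gr1lo arrays below both Gr1hi arrays, as had 34.6% of all genes. The second Mmp9 probe set, below background on all arrays, gave -0.20 with an adjusted p of 0.410 over all probe sets. The medians were -1.08 for the primary and -0.74 for the later genes, against -0.03 for all genes. In this comparison 6 of 8 measured classical markers fell (median -2.39), with list means of 8.997 and 8.84 in Gr1lo cells and 12.14 and 11.99 in Gr1hi cells. The mature neutrophil markers averaged 7.85 and 7.87 in Gr1lo cells and 8.62 and 8.43 in Gr1hi cells, and the poly-A spike controls 9.69 and 9.71 in Gr1lo cells and 8.82 and 9.17 in Gr1hi cells. The part of these in the result was not tested. The comparisons with and without beads rest on separate arrays but share 1 estimate of the spread.

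Within Gr1hi cells, bead-carrying cells were set against bead-free cells, and 2 of the 10 granule genes fell, 1 primary and 1 later, beside 0.247% of all genes called and 0.0989% called lower. Mpo differed by -1.16 ± 0.12 (adjusted p = 0.0177) and, since bead-carrying cells were below background, was at least 1.22-fold lower. Mmp9 differed by -0.91 ± 0.11 (adjusted p = 0.0280, 1.87-fold lower), and its second probe set, below background in all groups, by -1.43 ± 0.15 (adjusted p = 0.0180 over all probe sets). The other 8 did not pass the test but all had negative differences: Ngp -1.10 ± 0.43, Ltf -0.73 ± 0.28, Camp -0.69 ± 0.31, Lcn2 -0.49 ± 0.20, Prtn3 -0.41 ± 0.46, Ctsg -0.40 ± 0.15, Mmp8 -0.38 ± 0.25 and Elane -0.20 ± 0.11, with adjusted p between 0.446 and 0.837. Negative differences were also found for 9912 of all 18193 genes. Without array 1 of bead-free Gr1hi cells the differences of Ngp, Ltf and Camp were -0.317, -0.2985 and -0.226, and without array 2 they were -1.89, -1.16 and -1.15. For 8 of the 10, all but Camp and Ngp, both bead arrays lay below both bead-free arrays, as they did for 25% of all genes. At an unadjusted p under 0.05, 6 of the 10 were lower, against 5.99% of all genes. The medians were -0.41 for the primary and -0.71 for the later genes, against -0.02 for all genes, and the ranges of the classes overlapped (-1.16 to -0.20 for primary, -1.10 to -0.38 for later genes). The difference between the classes was not tested.

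Both calls were lost when any 1 of the 4 Gr1hi arrays was left out, as were most or all of the calls over all genes. The differences stayed at -1.04 to -1.28 for Mpo and -0.86 to -0.95 for Mmp9. The call of Mmp9 was also lost without either bead-carrying Gr1lo array, at an unchanged difference of -0.91. Other transcripts moved with the bead state of Gr1hi cells. The 11 measured neutrophil markers all had negative differences (median -0.31, 0 called by limma, 5 lower at an unadjusted p under 0.05), as had 9912 of all 18193 genes. Their summed linear levels were 13454 and 11877 with beads and 18098 and 19866 without. Most of each sum came from S100a8 (mean 12.58 with beads, 13.17 without) and S100a9 (11.34 and 12.31). Of these, S100a8 is also made by classical monocytes. The 8 measured classical markers also all had negative differences (median -0.28, 0 called), 3 of 10 nonclassical markers rose (Pparg, Treml4 and Eno3, by 1.14, 0.67 and 0.86), and 3 of 8 eosinophil and basophil markers were called lower (Mcpt8, Ms4a2 and Cpa3), although all 8 were below background on every array. The mean of 27 spiked poly-A control probe sets was 8.82 and 9.17 with beads and 7.30 and 7.63 without. The part of these in the result was not tested.

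Within Gr1lo cells, 1 of the 10 granule genes fell with beads, beside 0.225% of all genes called and 0.143% called lower. Mmp8 differed by -2.20 ± 0.25 (adjusted p = 0.0163) and, with bead-carrying cells below background, was at least 2.09-fold lower. Prtn3 (-1.87 ± 0.46, adjusted p = 0.180) and Lcn2 (-0.77 ± 0.20, adjusted p = 0.194) had the next largest differences and did not pass. The other 7 lay between -0.15 for Ctsg and 0.19 for Camp, with both groups below background for 6 of them and Elane close to it at 0.10 ± 0.11. Both bead arrays lay below both bead-free arrays for Prtn3, Mmp8 and Lcn2 (3 of 10, against 19.4% of all genes) and above them for Camp (1 of 10, against 23.3%). The medians were -0.06 for the primary and 0.01 for the later genes, against 0.02 for all genes.

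The Mmp8 call was lost without array 1 (adjusted p = 0.102) or array 2 (0.129) of bead-carrying Gr1lo cells. Without array 2 of bead-free Gr1lo cells, Prtn3, Mmp8 and Lcn2 were all called, with differences of -2.76 for Prtn3 and -1.12 for Lcn2, in a fit that called 354 of all genes against 41 with every array. Without array 1 of these cells the differences were -0.984 for Prtn3 and -0.425 for Lcn2, and neither was called. Classical monocyte genes moved alongside: 3 of 8 measured markers fell in bead-carrying Gr1lo cells, with differences of -3.04 ± 0.15 for F13a1, -2.97 ± 0.15 for Vcan and -1.48 ± 0.08 for Chil3 (median of the 8 -1.82), and the list averaged 8.997 and 8.84 with beads and 11.32 and 10.26 without. The array of bead-free Gr1lo cells that was higher in Prtn3, Mmp8 and Lcn2, array 1, also had the higher mean of these markers. Chil3 (13.18 on array 1 and 13.26 on array 2) and Mgst1 (12.29 and 12.39) were the exceptions in the list. The mean of the mature neutrophil markers was 7.85 and 7.87 with beads and 7.97 and 7.80 without, over members with differences from -1.99 (Cd177, called lower) to 1.45 (S100a9, adjusted p = 0.201). The poly-A spike controls averaged 9.69 and 9.71 with beads and 8.64 and 8.13 without. The part of these in the difference was not tested.

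**Figure D2:**
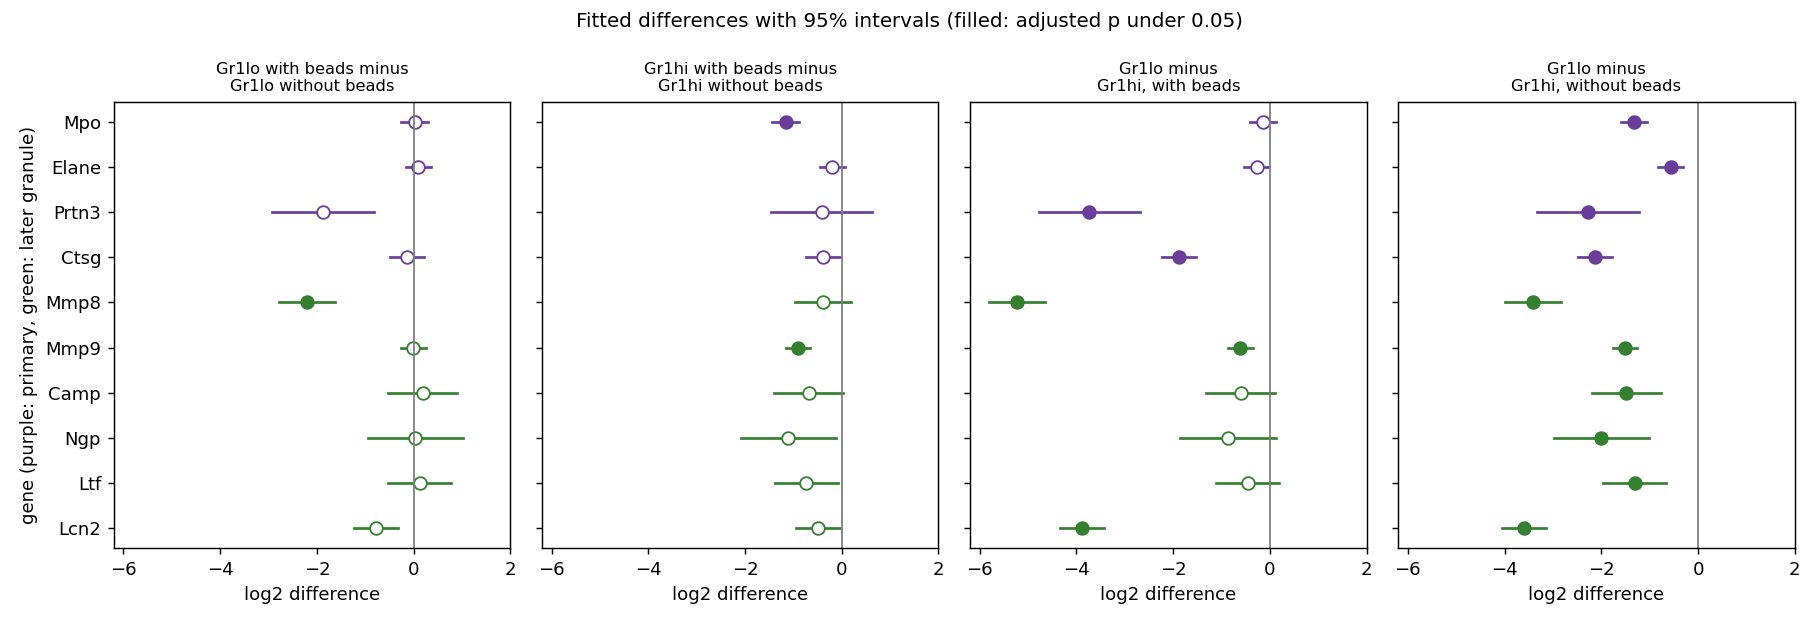
Fitted log2 differences (x axis) of the 10 genes (y axis, primary granule genes in purple, later ones in green) in 4 comparisons, with 95% intervals from limma and filled points for an adjusted p under 0.05. All 10 points are filled and left of 0 for Gr1lo against Gr1hi cells without beads, 5 are filled with beads, Mpo and Mmp9 are filled for beads in Gr1hi cells, and Mmp8 alone is filled for beads in Gr1lo cells.

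Whether the bead difference itself differed between subsets was tested as an interaction, and 0 of the 10 genes passed in limma, beside 0.044% of all genes. At an unadjusted p under 0.05, 3 of the 10 differed, against 7.84% of all genes. The bead difference was higher in Gr1lo than in Gr1hi cells for Mpo (1.18 ± 0.17, adjusted p = 0.119) and Mmp9 (0.90 ± 0.16, adjusted p = 0.289) and lower for Mmp8 (-1.81 ± 0.36, adjusted p = 0.393), without passing the threshold. The second Mmp9 probe set gave 1.86 ± 0.21 (adjusted p = 0.0435 over all 34945 probe sets), at values below background in every group. Mpo and Mmp9 were also below background in both Gr1lo groups, where levels have only a bound. Without array 2 of bead-free Gr1lo cells, Mpo, Prtn3 and Mmp8 passed (1.30, -2.35 and -2.29, adjusted p = 0.0109, 0.00362 and 0.000674), in a fit that called 167 of all genes against 8 with every array. Without array 1 of these cells none of the 3 passed, at 1.06, -0.5705 and -1.34.

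The members' profiles over the 8 arrays, each centred on its mean, were set against each other by root mean square distance. By this measure some members lay nearer to a gene of the other granule class than to those of their own. The distance counts amplitude, so it cannot show whether the classes differ in pattern. The primary gene Prtn3 lay 0.70 log2 units from Mmp8 and 0.63 from Lcn2, both later genes, and 1.55 from the neighbouring primary gene Elane. Mmp8 and Lcn2 were 0.60 apart. Camp lay 0.15 from Ltf and 0.31 from Ngp, and Mpo lay 0.24 from Mmp9, a primary beside a later gene. These distances describe 8 arrays that the genes share, and a gene held near background has a flat profile and therefore small distances to other flat ones.

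The spread between the 2 arrays of a group fell on particular genes. In Gr1hi cells, array 1 exceeded array 2 by 0.84 with beads and 0.92 without for Camp, by 0.67 and 1.57 for Ngp, and by 0.54 and 0.87 for Ltf, while 95% of all genes had gaps within 0.34 in either group. The other 7 members stayed inside that limit in both Gr1hi groups. Between arrays of the same number, bead-carrying Gr1hi cells were lower than bead-free ones by 0.73 and 0.65 for Camp, 1.55 and 0.65 for Ngp, and 0.90 and 0.57 for Ltf, in arrays 1 and 2. In bead-free Gr1lo cells the gaps were instead largest for Prtn3 (1.78), Mmp8 (0.95) and Lcn2 (0.69), against a 95th percentile of 0.41, with Camp at -0.10, Ngp at -0.20 and Ltf, with the opposite sign, at -0.47. Camp and Ngp thus stood out between Gr1hi arrays and not between bead-free Gr1lo arrays, and Prtn3, Mmp8 and Lcn2 the other way round.

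**Figure D3:**
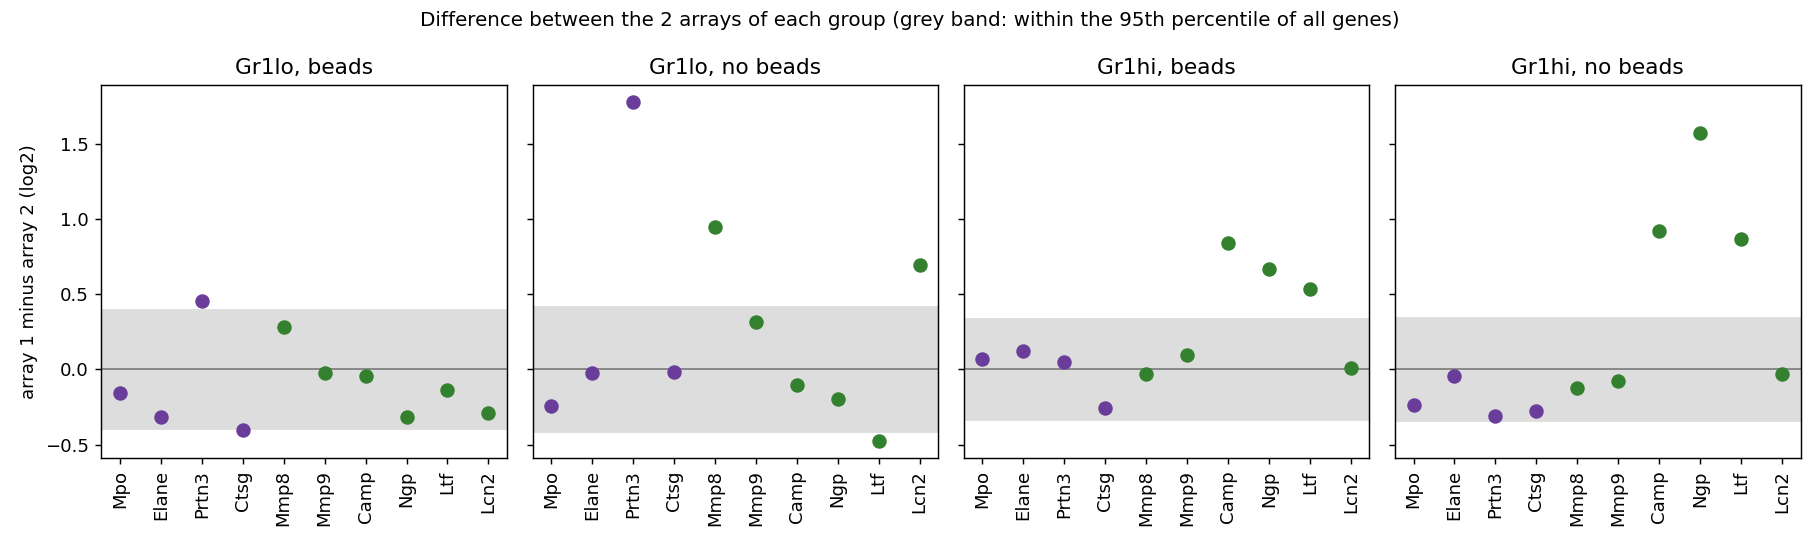
Log2 difference of array 1 minus array 2 (y axis) for the 10 genes (x axis, primary in purple, later in green) in each of the 4 groups, with a grey band that holds 95% of all genes. Camp, Ngp and Ltf lie above the band in both Gr1hi groups, and Prtn3, Mmp8 and Lcn2 lie above it in bead-free Gr1lo cells, where Prtn3 reaches 1.78.

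Other genes for granule contents and membranes were counted for comparison (19 of 24 listed genes measured). For this and the following lists, the share of all genes called between subsets was 23.6% without beads (13.6% lower) and 26.5% with beads (14.6% lower). For beads it was 0.247% in Gr1hi and 0.225% in Gr1lo cells. Without beads, 8 fell and 1 rose in Gr1lo relative to Gr1hi cells: Fcnb, a ficolin, differed by -1.74 ± 0.09 and haptoglobin, Hp, by -1.24 ± 0.11, and Pglyrp1, the peptidoglycan recognition protein of specific granules, rose by 2.59 ± 0.28 (adjusted p = 0.00036). With beads, 8 fell and 2 rose, with -2.22 ± 0.08 for Chil3, a chitinase-like protein, and -1.65 ± 0.11 for Hp. In Gr1hi cells 0 of 19 were called with beads (median -0.06, 2 lower and 0 higher at an unadjusted p under 0.05 in limma). In Gr1lo cells 3 of 19 fell with beads: Chil3 with -1.48 ± 0.08 (adjusted p = 0.000107), Hp with -0.74 ± 0.11 (0.0495) and Cd177, the partner of proteinase 3 on the neutrophil surface, with -1.99 ± 0.29 (0.0497). Cd177 was at 6.09 and 5.56 in Gr1lo cells with beads, 8.22 and 7.40 in Gr1lo cells without beads, 9.43 and 9.11 in Gr1hi cells with beads, and 9.87 and 9.29 in Gr1hi cells without beads, an order of groups shared with Prtn3. Chil3 also counts among the classical monocyte markers, and Cd177 among the neutrophil markers.

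Of 12 measured genes for granule processing and protease inhibition, 6 fell and 2 rose in Gr1lo relative to Gr1hi cells without beads. The cysteine protease inhibitor Cstb differed by -1.46 ± 0.10, the antiprotease-like Wfdc21 by -3.25 ± 0.27, and Srgn, which encodes the proteoglycan serglycin of granule matrices, rose by 1.08 ± 0.09. With beads 8 fell and 2 rose, with Ctsc, the cathepsin that activates the granule serine proteases, at -1.01 ± 0.08 (adjusted p = 4.10e-05). Beads gave 0 calls among these 12 in either subset (medians -0.06 in Gr1hi and -0.11 in Gr1lo cells; at an unadjusted p under 0.05 in limma, 2 and 1 were lower and 0 higher).

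Of 11 measured transcription factor genes for granule genes, 3 fell and 2 rose in Gr1lo relative to Gr1hi cells without beads, and 2 fell and 2 rose with beads. Cebpa, needed for granulocyte commitment, differed by -0.83 ± 0.12 without beads and -0.74 ± 0.12 with beads. Klf4, a factor of monocyte differentiation, rose by 1.39 ± 0.10 and 1.58 ± 0.10, and Cebpb by 0.80 ± 0.17 and 1.11 ± 0.17. Myb was called lower without beads but was below background on all arrays. Beads gave 0 calls among the 11 in either subset by limma, with 2 lower in Gr1hi cells and 0 in Gr1lo cells at an unadjusted p under 0.05.

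Of the 11 measured mature neutrophil markers, 5 fell and 3 rose in Gr1lo relative to Gr1hi cells without beads, and 5 fell and 3 rose with beads. The alarmin S100a8, also made by classical monocytes, was at 7.74 and 8.19 in Gr1lo cells with beads, 8.04 and 7.17 in Gr1lo cells without beads, 12.64 and 12.53 in Gr1hi cells with beads, and 13.08 and 13.25 in Gr1hi cells without beads. It differed by -5.57 ± 0.25 without beads. G0s2, a lipase inhibitor, ran the other way and rose by 2.67 ± 0.15 without beads and 3.36 ± 0.15 with beads, as did the receptor Trem1, by 1.86 ± 0.19 and 2.35 ± 0.19. Neutrophil markers thus moved in both directions between the subsets. The 10 granule genes had differences of 1 sign, while the other genes for granule contents and membranes had 14 negative and 5 positive differences without beads. Of all 18193 genes, 11612 had negative differences without beads and 10001 with beads. The part of neutrophil transcripts in these differences was not tested. Of 12 measured progenitor markers, 4 were called lower and 1 higher in Gr1lo cells in each comparison. Of all genes, 23.6% were called without beads (13.6% lower) and 26.5% with beads (14.6% lower). Among the called progenitor markers, Myb, Cd34 and Hdc without beads and Nkg7 with beads were below background on all arrays.

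**Figure D4:**
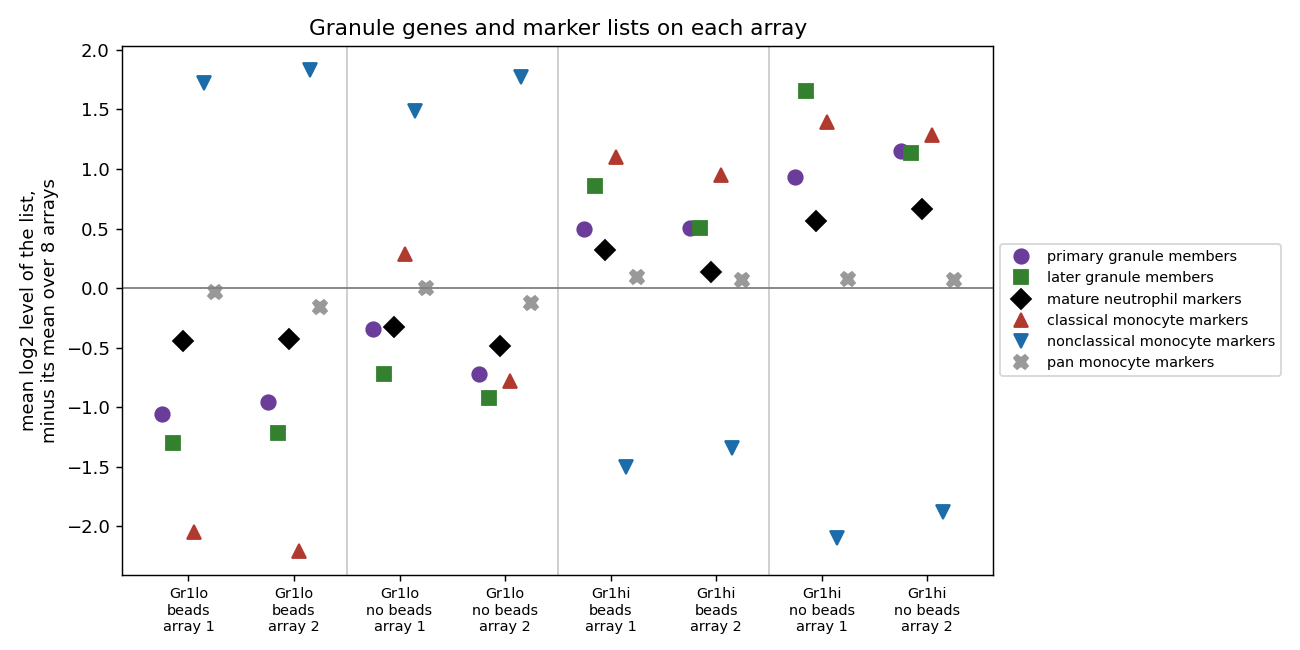
Mean log2 level of 6 gene lists on each array, minus the mean of the list over 8 arrays (y axis), for the 8 arrays by group (x axis), with a symbol for each list. Granule genes stand above 0 on Gr1hi and below 0 on Gr1lo arrays, as do the classical markers except on array 1 of bead-free Gr1lo cells, while nonclassical markers run the other way and pan monocyte markers stay near 0.

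The genes whose centred profiles lay nearest to the mean profile of the 4 primary genes, among 9064 candidates over 8 arrays, were C1galt1c1, a chaperone for glycosylation, at a root mean square distance of 0.13, the lysosomal sulfatase Galns at 0.15, Arhgap24 at 0.15, the transporter Abcc4 at 0.15 and Flot2 at 0.15. Those nearest to the mean profile of the 6 later genes were the ribonuclease Rnase2b at 0.16, Inf2 at 0.24, Ndrg1 at 0.25, the mitochondrial Ethe1 at 0.25 and Sdf2l1 at 0.26. The members' own distances from their class mean were larger, 0.30 to 0.96 for primary and 0.49 to 1.32 for later genes. That comparison cannot show whether a class is coherent, because the nearest genes were the closest of 9064 candidates and the distance counts amplitude. The members' correlations with their class mean, which includes them, were 0.78 to 0.97 for primary and 0.86 to 0.98 for later genes.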

How the data were processed

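Sorted monocytes were lysed in TRIzol, and their RNA was cleaned on RNeasy columns and labelled with biotin, per the labels' protocols. The deposited table, made by the authors, holds log2 values for 45101 probe sets on 8 arrays, normalised by RMA per the submitters' processing notes, with oligo and limma named in the series design. Versions and chip definition: not given in the sources used here. Of the probe sets, 34945 with 1 gene symbol were kept, and 932 with several symbols, 9160 with no listed symbol and 64 controls were left out; 34741 matched RefSeq symbols by Entrez number and 0 changed. The probe set with the highest mean stood for each of 18193 genes.

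All 8 arrays entered 1 model of 4 group means, lmFit with eBayes (limma 3.58.1, R 4.3.3; prior degrees of freedom 4.48, residual 4), two-sided, with Benjamini-Hochberg adjustment over 18193 genes. Calls need an adjusted p under 0.05, and a gene is said to rise or fall where it was called. SE is moderated; SD and n refer to 2 arrays a group. The fit was tested on simulated data. For background, 112 genes of the olfactory, vomeronasal and taste receptor and keratin-associated families were averaged over the arrays, and the 95th percentile was taken. A fold is a bound where the mean of 1 group was below it, with dim arrays set to that level.

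The members, lists and comparisons were chosen with earlier results of these data known. All 10 members are named, from other lists at most the 3 called genes of smallest p in a comparison, and the 5 genes nearest to each class profile; Cxcr2, Csf3r, Kit, Cd34, Csf1r, Nr4a1, Ccr2, S100a8 and S100a9 may be named for cell identity, and genes named beyond this were chosen after their values were seen (Pglyrp1, and Cebpb and Trem1 without beads, among them). Alternatives were a filter on dim genes, the mean of all probe sets, fitting the compared arrays alone, trend and robust moderation, median centring, cyclic loess, a replicate block, and fits without each array in turn. Replicate numbers were taken from the labels and did not serve as pairs. Promoters came from RefSeq GRCm38.p6. Tables and figures used pandas 2.3.3 and matplotlib 3.10.9 in Python 3.11.15.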

Additional observations from a re-analysis of the deposited data

How the results depend on the processing

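Leaving out genes under the background level kept 5 members in the test and gave 0 of them called for beads in Gr1hi cells, 5 for Gr1lo against Gr1hi cells without beads and 3 with beads, since fewer members were tested. Fitting the compared arrays alone, or eBayes with trend and robust estimation, gave 0 members called for beads in Gr1lo cells, and the latter gave 1 (Mpo) for the difference between subsets and 7 for the subsets without beads (Prtn3, Camp and Ngp lost); the cause was not tested. Leaving out 1 array at a time gave 0 to 2 members called for beads in Gr1hi cells, 0 to 3 for beads in Gr1lo cells, 8 to 10 for the subsets without beads, 5 to 6 with beads and 0 to 3 for the difference between bead effects. A group left with 1 array is assumed to vary like the others. The median of the primary genes for beads in Gr1lo cells was -0.89 with dim genes left out, -0.096 after median centring, -0.10 with cyclic loess, and -0.21 to 0.0775 without 1 array; that of the later genes was -0.77 with dim genes left out and -0.090 to 0.099 without 1 array. With dim genes left out the primary median was -1.42 for the subsets without beads and -2.004 with beads, and the later median -3.41 and -3.88. Without 1 array, the primary median ranged over -1.86 to -1.42 without beads, -1.26 to -0.90 with beads and -0.55 to -0.26 for beads in Gr1hi cells, and the later median over -2.36 to -1.38, -1.11 to -0.55 and -1.01 to -0.38. Uncalled differences near 0 for beads in Gr1lo cells changed sign. Mpo was at -0.0115 after median centring and -0.03135 with cyclic loess, Mmp9 at 0.21 with the mean of its probe sets, and Ngp at -0.0005 after median centring. Without 1 array the ranges were -0.10 to 0.1445 for Mpo, -0.064 to 0.254 for Elane, -0.3465 to 0.0545 for Ctsg, -0.1615 to 0.1515 for Mmp9, -0.126 to 0.192 for Ngp and -0.1145 to 0.3595 for Ltf. The difference between bead effects of Lcn2 ranged over -0.6325 to 0.0615. Of 745 recomputed single differences 699 kept direction and side of the threshold, 21 lost and 11 gained a call, and 14 reversed. Same-numbered arrays deviated together within a subset (correlation 0.36 in Gr1hi and 0.27 in Gr1lo cells) and not across subsets, from 2 pairs each, a hint from the data and not a design. The replicate block left the members called at 2, 1, 10, 5 and 0 in the 5 comparisons. A replicate block within each subset, chosen after seeing the data, gave 3 for beads in Gr1hi cells (Camp in addition, adjusted p = 0.0290), 1 in Gr1lo cells and 0 for their difference. Over all genes, the count called for beads in Gr1hi cells was 45, against 121 with trend and robust estimation, 102 with that block and 0 to 58 without 1 array. For beads in Gr1lo cells it was 41, against 12 with the compared arrays alone, 127 with trend and robust estimation, 106 with that block and 17 to 354 without 1 array. For the difference between bead effects it was 8, against 17 with trend and robust estimation and 1 to 167 without 1 array. For the subsets without beads it was 4288, against 2631 without array 1 and 2762 without array 2 of bead-free Gr1hi cells.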

Other observations

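Genes that shared the gap between the 2 Gr1hi arrays were sought after the values were seen. Array 1 exceeded array 2 by more than 0.5 in both Gr1hi groups for 52 of 18193 genes, Camp, Ngp and Ltf among them, and array 2 exceeded array 1 for 31. The gaps of the heat shock gene Hspa1a were 3.46 with beads and 3.08 without, those of Hspa1b 3.16 and 2.69, those of Fosb 1.34 and 1.44, those of Jun 0.99 and 1.45, and those of Ptgs2 1.23 and 1.30. In Gr1lo cells the gaps of Hspa1a were 0.38 with beads and 0.35 without, and those of Camp -0.04 and -0.10. In bead-free Gr1lo cells, array 1 was also higher in the matricellular gene Thbs1, by 3.27, as it was for Prtn3, Mmp8 and Lcn2.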
